A study of Mus musculus with 22 samples.

Results

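The 31 genes described here encode the glucose transporters, the enzymes from hexokinase to lactate dehydrogenase with their isoforms, the lactate carriers, the PFKFB enzymes and pyruvate dehydrogenase kinase 1. They were taken by name, and all 31 were found among the 24911 genes measured in each of 22 mouse poly(A) RNA-seq libraries. The series combined transcript levels with chromatin accessibility to map transcription factor binding in mouse cells and tissues, and the accessibility data were not analysed here. Each of the 22 groups has 1 library, so related libraries stand in for replicates and the tests below measure the spread between those libraries.

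Mature B cells were taken from the spleens of C57BL/6J mice by negative selection. They were sequenced unstimulated (splenic B) and after activation with LPS alone, LPS with IL4, LPS with IL21, LPS with a-d-dextran, aCD40 with IL4, or aBCD180, which gives 7 primary B libraries, 6 of them activated. The CD4 T libraries were CD4+ T cells, follicular helper cells (Tfh), activated non-Tfh cells sorted as CD4+CD44+CXCR5-PD1-CD25-, and follicular regulatory cells (Tfr) sorted as CD4+CD44+CXCR5+PD1+CD25+. Each of these 4 populations has an unmarked library and a second marked MUT, a mark whose meaning the labels do not give. ConA-activated CD4+ T cells make the ninth CD4 T library, and the 7 B and 9 CD4 T libraries are the 16 lymphocyte libraries. The remaining libraries were basophils, putamen, medulla oblongata, sensorimotor cortex, back skin, and clone bc5 of the B lymphoma line CH12. Ages, animal numbers and culture times are not given in the labels, and strain is given for the B cells alone.

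Glycolysis converts glucose to pyruvate and yields ATP without oxygen. Transporters of the Slc2a family admit glucose, hexokinase traps it as a phosphate ester, and phosphofructokinase makes the committing step, which the PFKFB enzymes tune through fructose 2,6-bisphosphate. Aldolase, triose phosphate isomerase, glyceraldehyde phosphate dehydrogenase, phosphoglycerate kinase, phosphoglycerate mutase, enolase and pyruvate kinase complete the path. Lactate dehydrogenase reduces pyruvate to lactate, which carriers of the Slc16a family export, while PDK1 restrains pyruvate entry into mitochondria by phosphorylating pyruvate dehydrogenase. Most steps have several isoforms with known tissue preferences, such as neuronal Eno2, muscle Pgam2 and Eno3, astrocytic Aldoc and liver Pklr. Activated lymphocytes are known for raising glycolysis.

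Total expected counts per library ran from 30.8 M (LPS B) to 147.9 M (ConA CD4+). Markers of the labelled cells were present: all 8 T cell markers reached 1 TPM in the 9 CD4 T libraries, and all 8 B cell markers did so in the 7 primary B libraries, with 7 of the 8 in CH12. All 7 neuronal markers passed that level in the 3 brain libraries, all 6 basophil markers in basophils, and all 6 keratinocyte markers in back skin. Back skin also held all 8 skeletal muscle markers (summed 7113 TPM) and all 5 adipocyte markers (4774 TPM). The tables of CH12, ConA CD4+, splenic B and LPS+IL4 B, 4 in all, carry another transcript length model, with at least 49.0 bases between a gene's length and its effective length against 48.55 to 48.57 in the others. Eno1, described further on, divides its reads differently there.

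In TPM, a transcript measure scaled for gene length and library size, the 31 genes together took between 0.246% of all transcripts in splenic B cells and 1.95% in LPS+IL4 B cells. CD4+ T cells were low as well, at 0.328% and 0.338% (MUT). ConA CD4+ T cells reached 1.5%, and the brain regions 1.19% (putamen), 1.47% (medulla) and 1.35% (cortex). Of the 31 genes, 14 held at least 10 TPM in every library: Slc2a1, Hk1, Gpi1, Pfkl, Pfkp, Aldoa, Tpi1, Gapdh, Pgk1, Pgam1, Eno1, Pkm, Ldha and Pfkfb3. Another 9 stayed at or above 1 TPM in every library, and Pklr, the liver and red cell pyruvate kinase, was under 10 TPM throughout.

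**Figure D1:**
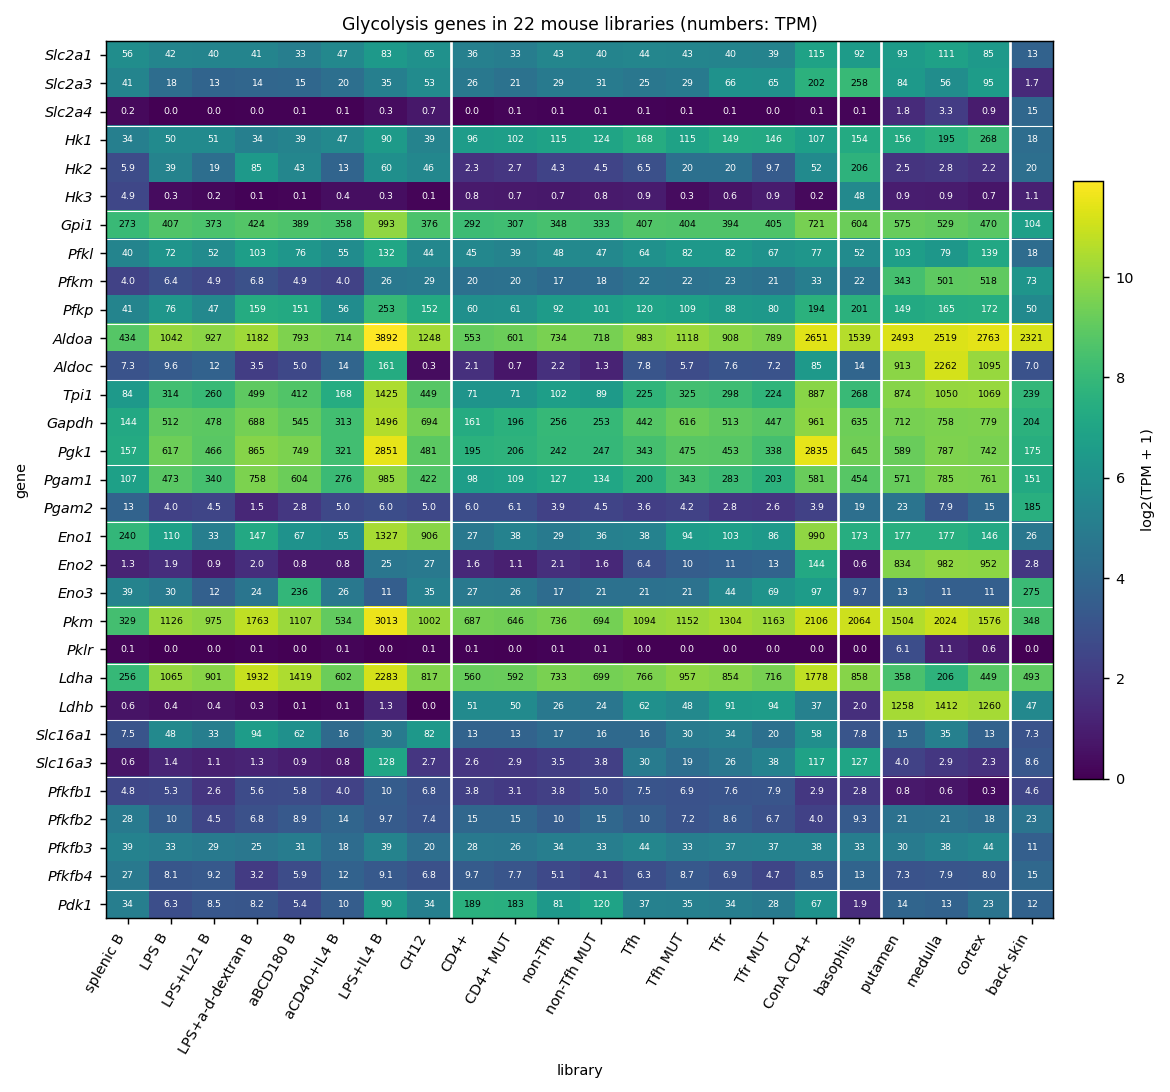
TPM of the 31 genes (rows, grouped by step) in the 22 libraries (columns), coloured by log2(TPM + 1), with the TPM printed in each cell. Aldoa, Pkm and Ldha are bright in most columns, while Hk3, Pklr and Slc2a4 are the darkest rows.

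Pkm, the pyruvate kinase of most tissues, had the highest median over the 22 libraries at 1117 TPM, from 329 in splenic B to 3013 in LPS+IL4 B. Aldoa followed with a median of 1013 TPM (434 in splenic B to 3892 in LPS+IL4 B), and Ldha with 749 TPM (206 in medulla to 2283 in LPS+IL4 B). LPS+IL4 B cells held the highest level of the series for 12 genes, namely Gpi1, Pfkp, Aldoa, Tpi1, Gapdh, Pgk1, Pgam1, Eno1, Pkm, Ldha, Slc16a3 and Pfkfb1. The gene length reported for Pkm was 2432 in every library, so its alternative transcripts cannot be told apart here. On the mm10 build (RefSeq, GRCm38.p6) Ldha lies at chr7:46842274-46855627 and Ldhb at chr6:142490249-142507957. Chromosome 6 also holds Eno2 (chr6:124760053-124769673), Tpi1 (chr6:124810586-124814158) and Gapdh (chr6:125161852-125166467), while Slc16a3 lies at chr11:120948484-120959000 and Pdk1 at chr2:71873215-71903858.

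The 3 brain regions differed from lymphocytes in isoform use in 6 of 10 families compared: more Ldhb than Ldha, more Eno2 among the enolases, Aldoc beside Aldoa, more Pfkm than Pfkp or Pfkl, little Hk2, and a trace of Pklr. Ldhb, the heart-type subunit of lactate dehydrogenase, stood at 1258 TPM in putamen, 1412 in medulla and 1259.7 in cortex. The 16 lymphocyte libraries ran from 0.10 to 94.2 TPM, with a median of 25.2, so the groups did not overlap. Ldha, the muscle-type subunit, was 358, 206 and 449 TPM in the same regions against 256 to 2283 in lymphocytes, with a median of 809.6. Ldhb therefore made 79.6% ± 6.94 (SD, n = 3) of summed lactate dehydrogenase TPM in brain and 3.68% ± 4.06 (n = 16) in lymphocytes.

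Enolase and aldolase differed as well. Eno2, the neuronal enolase, was 834, 983 and 952 TPM in putamen, medulla and cortex, against a lymphocyte median of 1.96 TPM and a maximum of 144 TPM in ConA CD4+. It made 83.7% ± 2.22 of Eno1, Eno2 and Eno3 in brain and 4.0% ± 3.68 in lymphocytes, and 46.4%, 47.9% and 49.0% in the 3 regions once Eno1b was added to the sum. Aldoc, which astrocytes and Purkinje cells express, was 913 TPM in putamen, 2262 in medulla and 1095 in cortex, and took 34.2% ± 11.4 of the aldolase sum against 1.11% ± 1.09. Medulla was the highest of the regions for Aldoc, and its 6 astrocyte markers were also the highest, at 3574 TPM summed against 1627 in putamen and 1877 in cortex. The part of cell composition in this was not tested, and in tissue a change in cell number cannot be told apart from a change in RNA per cell.

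Among phosphofructokinases, muscle-type Pfkm reached 343, 501 and 518 TPM in the brain regions, while all 16 lymphocyte libraries lay between 4.03 and 33.0 TPM. Pfkp, the platelet type, made 22.7% ± 2.22 of the family in brain and 53.9% ± 6.92 in lymphocytes. Its TPM ran from 149 to 172 in brain and from 41.3 to 253 in lymphocytes. Hk1, a hexokinase that binds mitochondria, was 156, 195 and 268 TPM, against 34.2 to 168 in lymphocytes. Hk2, its inducible relative, was 2.5, 2.83 and 2.21 TPM, against 2.28 to 85.3 in lymphocytes, with 2.28 and 2.73 in CD4+ and CD4+ MUT. The Hk2 share was 1.27% ± 0.398 in brain and 21.8% ± 20.9 in lymphocytes. Pklr was 6.13 TPM in putamen, 1.05 in medulla and 0.63 in cortex against at most 0.12 in lymphocytes, a share of 0.166% ± 0.208 against 0.00683% ± 0.00993. The Pklr difference rested largely on putamen, being 0.159 percentage points with it and 0.0391 without it.

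In each of these 6 families the brain and lymphocyte shares did not overlap, while the TPM of Hk2 and of Pfkp did. Each share gave p = 0.00206 in a two-sided exact permutation test over 3 and 16 libraries, the smallest p that design allows. The adjusted p of that test was 0.00459 over the 20 share tests. The test did not pass for the shares of Slc2a3 (44.2% ± 10.1 against 40.1% ± 12.7, exact p = 0.603), Pgam2 (2.26% ± 1.47 against 2.45% ± 2.77, exact p = 0.914), Slc16a3 (14.6% ± 6.75 against 28.3% ± 27.7, exact p = 0.528) and Pfkfb3 (56.4% ± 5.79 against 57.6% ± 9.33, exact p = 0.751). The brain regions are related tissues, not replicates, and the 6 shares passed under every alternative tried for shares.

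**Figure D2:**
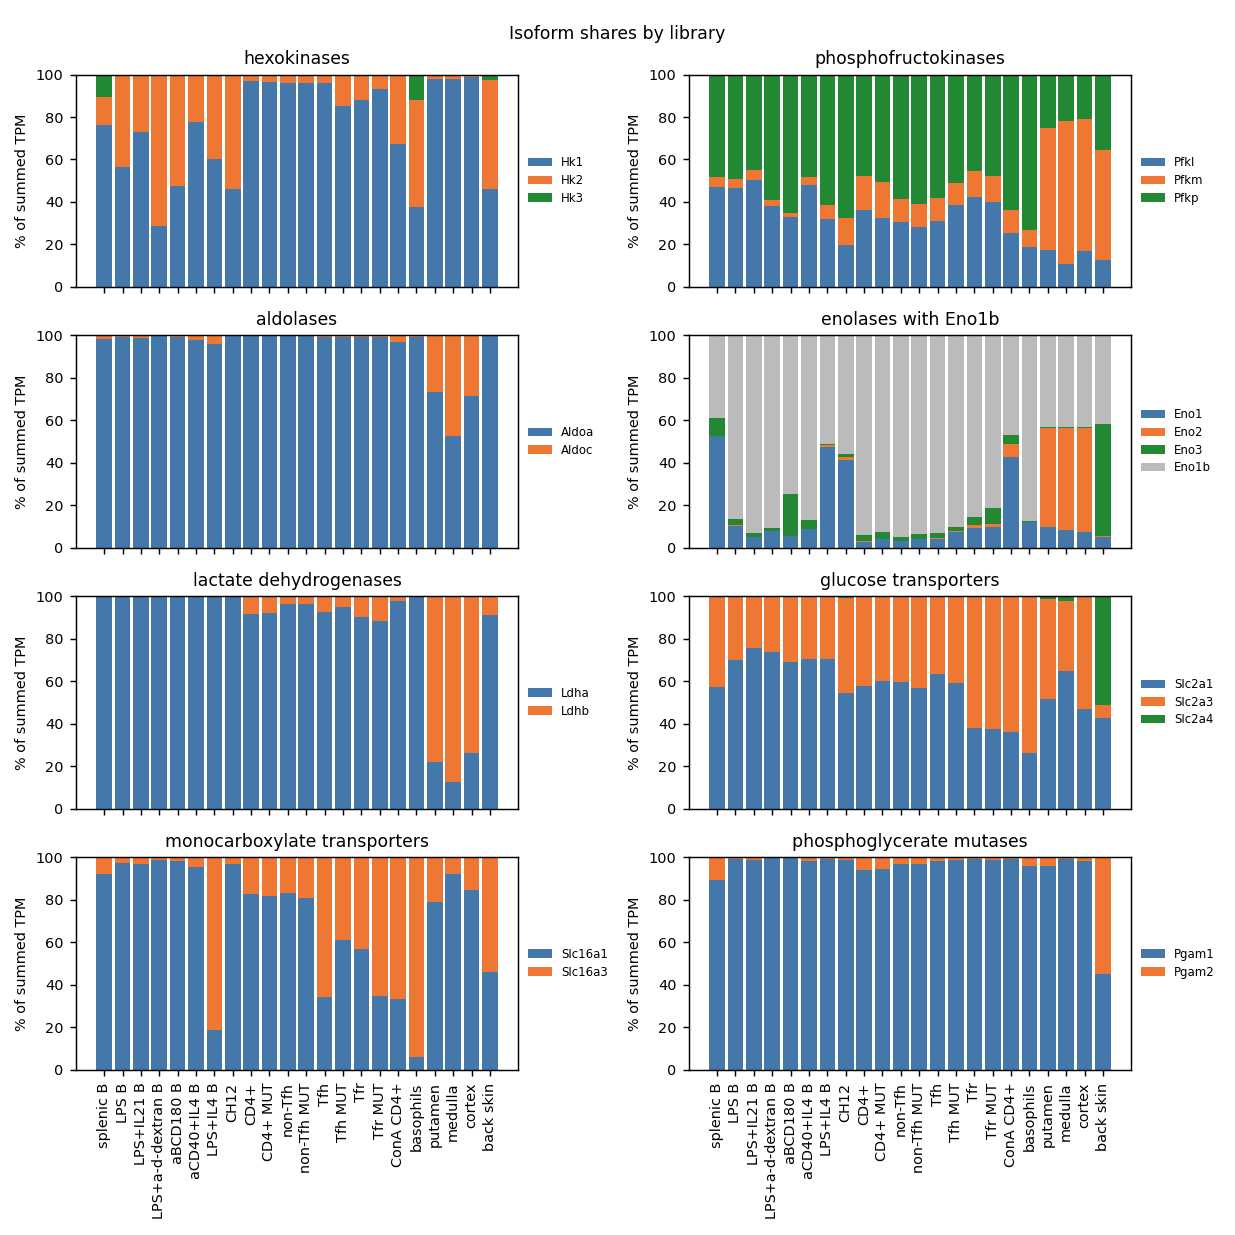
Share of summed TPM (%, vertical axis) held by each isoform in the 22 libraries (horizontal axis) for 8 families, with Eno1b included among the enolases. The 3 brain columns change colour in the phosphofructokinase, aldolase, enolase and lactate dehydrogenase panels, and back skin does so for Slc2a4 and Pgam2.

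The count model tested each gene. Of the 31 genes, 8 rose in brain against lymphocytes (40.7% of the 15808 genes tested were higher) and 4 fell (34.2% were lower), so both shares lie below the background. The median log2 fold change was 0.24 for the 31 and 0.13 for all genes. Ldhb rose by 7.68 ± 0.41 on the log2 scale (SE; adjusted p = 8.53e-12, edgeR), Eno2 by 6.07 ± 1.11 (7.31e-05), Aldoc by 5.63 ± 1.05 (8.99e-05) and Pfkm by 4.71 ± 0.39 (2.96e-09). Hk1 rose by 1.07 ± 0.24. Pgam2 was 23.0, 7.90 and 14.8 TPM and rose by 1.38 ± 0.43, and Slc2a4, the insulin-regulated transporter, was 1.75, 3.29 and 0.89 TPM against at most 0.31 in lymphocytes and rose by 4.10 ± 0.63. Pklr passed the test too, at the levels given above. Ldha fell by 1.96 on the log2 scale (SE 0.59), Hk2 by 3.58 (1.10), Eno3 by 2.29 (0.89) and Pfkfb1 by 3.61 (0.5). Against unstimulated lymphocytes alone, where B cells have 1 library, the differences for Ldha (-0.61) and Pgam2 (0.36) did not pass. The Eno3 call was lost without any single brain region, and the Pgam2 call without putamen.

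The trunk genes Gpi1, Aldoa, Tpi1, Gapdh, Pgk1, Pgam1, Eno1 and Pkm did not pass the test in brain. Gpi1 was 470.2 to 575 TPM in brain and 273 to 993 in lymphocytes, and Gapdh was 712 to 779 TPM against 144 to 1496. The fold changes were -0.08 ± 0.36 for Gpi1, 0.17 ± 0.55 for Gapdh, -0.47 ± 0.89 for Pgk1 and 0.17 ± 0.50 for Pkm on the log2 scale. Slc2a1, the transporter of the blood-brain barrier, was 92.7, 111 and 84.8 TPM and also missed the threshold (0.61 ± 0.36).

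Genes of the pathway outside the 31 were also measured in the brain regions. Hkdc1, a hexokinase-like gene, was 21.9 TPM in cortex and 2.75 in putamen. Of 20 further genes of the pathway, 18 were tested and 10 rose and 2 fell. Pyruvate entry had 10 of 13 higher and 2 lower: the inhibitory kinase gene Pdk4 was 20.1, 26.9 and 8.38 TPM in the 3 regions against at most 0.08 in lymphocytes, and the phosphatase gene Pdp1 rose by 4.18 ± 0.27. All 7 pentose phosphate genes fell, Rpia by 3.22 on the log2 scale (SE 0.25) and Pgls by 1.95 (0.27). Of 16 citrate cycle genes, 7 rose and 1 fell, a share of higher genes close to the 40.7% of all genes, with Sucla2 at 1.59 ± 0.17. All 12 proliferation genes fell beside these, Mki67 by 5.74.

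Between B and CD4 T cells the largest change among the members was in Ldhb. Ldhb was nearly absent from primary B cells, at 0.10 to 1.34 TPM (median 0.42), and present in every CD4 T library, at 24.4 to 94.2 TPM (median 50.4). CH12 lymphoma cells had 0.03 TPM and basophils 2.05 TPM, while back skin had 46.7. Ldha was abundant on both sides, at 256 to 2283 TPM in B and 560 to 1778 TPM in CD4 T cells. The Ldhb share was 0.0581% ± 0.0714 (n = 7) in B and 6.5% ± 3.24 (n = 9) in CD4 T cells, with no overlap (two-sided exact permutation p = 0.000175, the smallest possible, adjusted 0.0035). In the count model Ldhb fell by 6.68 on the log2 scale (SE 0.57, adjusted p = 3.94e-07, edgeR) in B against CD4 T cells.

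In all, 5 of 29 members tested fell in B cells (22.5% of 12437 genes did), and 0 rose by edgeR (23.9% of genes did), with 3 higher by DESeq2 and 1 by limma. At an unadjusted p under 0.05 edgeR listed 6 of the 29 members in either direction, and 6704 of the 12437 genes. Hk1 was 34.2 to 90.2 TPM in B (median 47.3) and 95.6 to 168 in CD4 T cells (median 115), without overlap, and fell by 1.22 (SE 0.21, adjusted p = 0.000257). Pfkm was 4.03 to 26.2 TPM (median 4.87) against 17.05 to 33.0 (median 20.53), overlapping through LPS+IL4 B, and fell by 1.32 (SE 0.42). Slc2a3, a high-affinity transporter of neurons and leukocytes, was 13.15 to 41.3 TPM against 21.3 to 202 and fell by 1.39 (SE 0.54, adjusted p = 0.0432). Pdk1 was 5.4 to 90.5 TPM against 28.0 to 189 and fell by 1.84 (SE 0.7, adjusted p = 0.04).

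The calls for Hk1, Pfkm and Ldhb held whichever library was left out, while those for Slc2a3 and Pdk1 were both lost when ConA CD4+ was left out, and when any activated B library other than LPS+IL4 B was left out. The Slc2a3 call was also lost without Tfr or Tfr MUT, and the Pdk1 call without any 1 library of the non-Tfh and CD4+ pairs. Without ConA CD4+ 17 members were called, 14 higher and 3 lower. The fits that left out 1 library called 5038 to 6648 of all genes in either direction, against 5773 in the main fit. Without LPS, LPS+IL21, LPS+a-d-dextran or aBCD180 B, 3 members were called in each case, and DESeq2 called 11 and a fit with a length model term 9. With activation as a further term 3 of the 5 passed. Slc2a3 and Pdk1 missed the threshold there with log2 fold changes of -1.35 and -1.48, and without ConA CD4+ that of Slc2a3 was -0.48.

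The shares of Hk2, Eno2 and Slc2a3 also differed between the lineages. Hk2 was 5.87 to 85.3 TPM in B (median 38.8) and 2.28 to 51.8 TPM in CD4 T cells (median 6.45), or 38.3% ± 19.8 of the hexokinases against 9.0% ± 9.89 (exact permutation p = 0.00262, adjusted 0.00524). Eno2 held 1.12% ± 0.631 of the enolase sum in B and 6.23% ± 3.49 in CD4 T cells (exact p = 0.000524, adjusted 0.00459), a call that was lost once Eno1b was added to the sum. The Slc2a3 share was 30.3% ± 5.82 against 47.7% ± 11.3 (exact p = 0.00105, adjusted 0.00459). The sides overlapped in each of these 3 families. Of the 7 B libraries 6 were activated in culture, but 1 of the 9 CD4 T libraries, so these tests cannot tell lineage and culture apart. In the unstimulated libraries the Slc2a3 share was 42.5% in splenic B and 42.3% and 39.4% in CD4+ and CD4+ MUT. In that order the Hk2 share was 13.0%, 2.31% and 2.58%. The Eno2 share was 0.46%, 2.83% and 1.65%, or 0.282%, 0.172% and 0.122% with Eno1b in the sum.

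Neighbouring pathways differed in their counts. Of the 7 pentose phosphate genes 6 were higher in B cells, with Pgls at 1.03 ± 0.19 and Rpia at 0.75 ± 0.16, and of 16 citrate cycle genes 9 were, with Fh1 at 1.67 ± 0.24. Of 12 pyruvate entry genes tested 3 were higher and 1 lower, and none of the 8 glycogen and 3 gluconeogenesis genes tested was called. Among 14 regulators, 12 were tested, 4 were lower and 1 higher: Epas1 fell by 3.41 (SE 0.83) and Hif1a by 1.58 (SE 0.38). The lactate carrier Slc16a7 was 0.67 to 5.70 TPM in B cells and at most 0.05 in CD4 T cells. Of the 12 proliferation genes, 11 were higher in B cells beside these, Rrm2 by 2.48 ± 0.63.

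The sorted T populations differed from CD4+ T cells in part of the pathway, with more of the lactate exporter gene and of several trunk enzymes and less Pdk1. Of 29 members tested, 8 rose (13.4% of 13064 genes were higher) and 4 fell (11.4% were lower) in the mean of Tfh, non-Tfh and Tfr against CD4+, and the median was 0.34 for members and 0.02 for all genes. Slc16a3, which encodes the lactate exporter MCT4, rose most, by 2.14 ± 0.31 on the log2 scale (adjusted p = 0.0065, edgeR). Its TPM were 2.64 and 2.85 in CD4+ and CD4+ MUT, 3.48 and 3.78 in the non-Tfh pair, 30.2 and 18.8 in Tfh and Tfh MUT, and 25.8 and 38.2 in Tfr and Tfr MUT. The 4 follicular libraries thus stood apart from the other 4.

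Triose phosphate isomerase and glyceraldehyde phosphate dehydrogenase also had their highest levels, of these 8 libraries, in the 4 follicular ones. Tpi1 was 71.3 and 71.0 TPM in the CD4+ pair, 102 and 88.9 in non-Tfh, 225 and 325 in Tfh, and 298 and 224 in Tfr, and it rose by 1.17 ± 0.18. Gapdh was 161 and 196 TPM, 256 and 253, 442 and 616, and 513 and 447 in that order, and rose by 0.93 ± 0.14. Pgam1 rose by 0.74 ± 0.21, Eno2 by 1.93 ± 0.33, Aldoc by 1.57 ± 0.39, Hk2 by 1.67 ± 0.47 (adjusted p = 0.0495) and Pfkp by 0.45 ± 0.10. Hk2 was 2.28 and 2.73 TPM in the CD4+ pair, and 20.04 TPM in Tfr and 19.9 in Tfh MUT, which also held the most B cell marker RNA of the CD4 T libraries.

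The kinase gene Pdk1 ran opposite. It was 189 and 183 TPM in the CD4+ pair, the highest levels in the series, 80.8 and 119.95 in non-Tfh, 36.9 and 35.2 in Tfh, and 33.7 and 28.0 in Tfr. It fell by 2.19 on the log2 scale (SE 0.14, adjusted p = 0.000658), and was the only member here whose call held whichever library was left out. Pfkfb2 fell by 0.83 (SE 0.17), Pfkfb4 by 0.80 (SE 0.21) and Pgam2 by 1.02 (SE 0.26). Without CD4+ the count of members called was 1, as it was without CD4+ MUT. It was 6 without either non-Tfh library, 19 without Tfh and 22 without Tfh MUT and Tfr. Over the 8 fits that left out 1 library the log2 fold changes ran from 1.05 to 1.27 for Tpi1, 0.85 to 1.05 for Gapdh, 1.93 to 2.29 for Slc16a3 and -1.05 to -0.96 for Pgam2, and from 1.05 to 2.28 for Aldoc. Among 12 regulators tested, 2 rose and 2 fell: Egln3, an oxygen-sensing prolyl hydroxylase, rose by 3.35 ± 0.28 and Epas1 fell by 1.87 (SE 0.3).

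Against non-Tfh cells alone, Tfh and Tfr had 8 of 29 members higher (8.26% of genes were higher) and 1 lower (7.62%). The median was 0.41 for members and 0.02 for all genes. Both contrasts use the same sorted libraries and are not independent. Slc16a3 rose by 2.80 ± 0.33 (adjusted p = 0.00599), Eno2 by 2.24 ± 0.34, Aldoc by 1.95 ± 0.41, Ldhb by 1.35 ± 0.16 (adjusted p = 0.00644), Tpi1 by 1.31 ± 0.19, Gapdh by 0.80 ± 0.15 and Pkm by 0.55 ± 0.11. Ldhb was 26.1 and 24.4 TPM in the non-Tfh pair, 62.3 and 48.1 in Tfh, and 90.6 and 94.2 in Tfr, with the CD4+ pair at 50.9 and 50.4. Pdk1 fell by 1.75 (SE 0.15). Eno1 rose by 1.09 ± 0.28 (adjusted p = 0.0494), and this became -0.01, not called, when Eno1 and Eno1b were summed. Of these 9 calls 1, Pdk1, was kept without the non-Tfh library and none without the non-Tfh MUT library. Over the 8 fits that left out 1 library the log2 fold changes ran from 2.49 to 3.02 for Slc16a3, 1.22 to 1.45 for Ldhb, 1.95 to 2.55 for Eno2, 1.14 to 1.5 for Tpi1 and -2.02 to -1.44 for Pdk1.

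Other genes changed beside them. Hif1a, the hypoxia-inducible factor subunit, was 322 and 257 TPM in Tfh and Tfh MUT, 251 and 219.8 in the Tfr pair, 80.7 and 85.8 in non-Tfh, and 47.6 and 49.05 in the CD4+ pair, and rose by 1.47 ± 0.14 in follicular against non-Tfh cells. Of 15 hypoxia-responsive genes outside glycolysis 1 rose, Bhlhe40 by 2.23 ± 0.33. Of the 12 proliferation genes 5 rose, Rrm2 by 1.54 ± 0.31 and Mki67 by 1.49 ± 0.27. B cell marker RNA was 705 TPM summed in Tfh MUT, 505 in Tfr, 181 in Tfh and 143 in Tfr MUT, against 93 to 119 in the non-Tfh and CD4+ pairs, and proliferation genes summed to 782 to 1385 TPM in the 4 follicular libraries against 433 to 557. Without Tfh MUT and Tfr, an alternative added after seeing the data, 16 members were higher and 2 lower. Leaving out Tfh alone gave 15 members. The part of proliferation in these differences was not tested.

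No member passed the test for the MUT label. By edgeR 0 of 29 members passed (0.0% of 13064 genes), and 0 had an unadjusted p under 0.05, with 192 genes at that level. DESeq2 called 2 genes, limma 0, and neither tool called a member. The largest difference was for Aldoc, at -0.69 ± 0.31 on the log2 scale, and Slc16a3 was at 0.06 ± 0.24. A p that misses the threshold does not show that the pairs were alike. Without Tfh MUT and Tfr, 1 member and 478 genes were called.

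**Figure D3:**
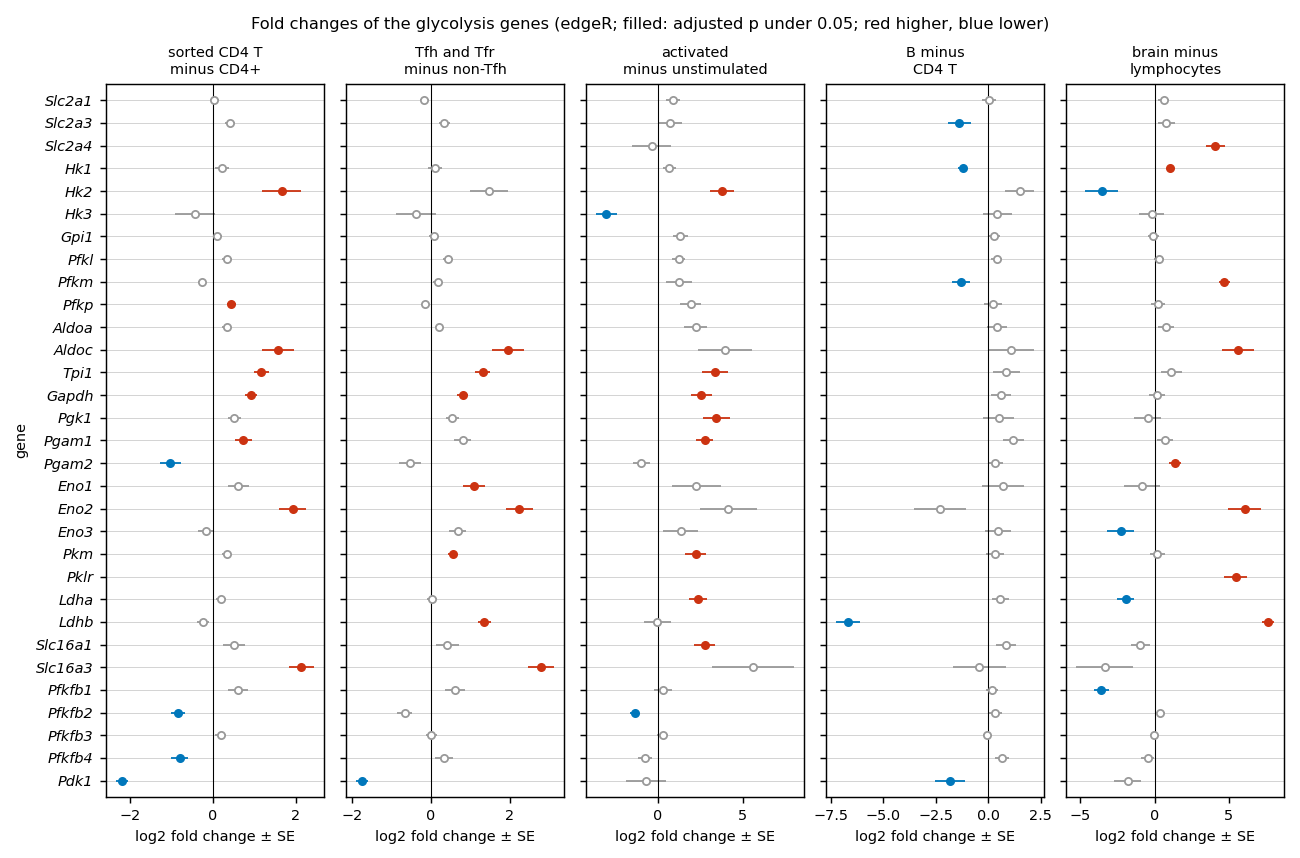
Log2 fold change with its standard error (horizontal axis) for each gene (rows) in 5 comparisons, filled red where higher and blue where lower at an adjusted p under 0.05. Ldhb is blue in B minus CD4 T and red in brain, and Pdk1 is blue in both sorted T comparisons.

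With activation in culture, hexokinase 2, much of the trunk of the pathway and the lactate carrier Slc16a1 rose. Of 30 members tested over 10 libraries, with lineage as a term, 8 rose (8.1% of 13422 genes were higher) and 2 fell (5.99% were lower), with a median of 1.33 for members and 0.06 for all genes. Hk2 was 5.87 TPM in splenic B and 13.3 to 85.3 in the 6 activated B cultures, and 2.28 and 2.73 TPM in the CD4+ pair and 51.8 in ConA CD4+. It rose by 3.79 ± 0.70 (adjusted p = 0.0142, edgeR), and the activated and unstimulated libraries did not overlap. Pgk1, which makes ATP in the pay-off phase, was 157 TPM in splenic B and 321 to 2851 in activated B cells, and 195, 206 and 2835 TPM in CD4+, CD4+ MUT and ConA CD4+. It rose by 3.44 ± 0.81, Tpi1 by 3.35 ± 0.77, Pgam1 by 2.74 ± 0.49, Gapdh by 2.56 ± 0.59, Ldha by 2.35 ± 0.55 and Pkm by 2.21 ± 0.61.

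The lactate carrier Slc16a1 rose by 2.74 ± 0.61, from 7.45 TPM in splenic B to 16.2 to 94.1 in the activated B cultures, and from 12.8 and 12.8 TPM in the CD4+ pair to 58.5. Pfkfb2 fell by 1.37 (SE 0.28), from 28.3 TPM to 4.54 to 13.9 in B cells and from 14.7 and 14.6 TPM to 4.0 in T cells. Hk3, a hexokinase of myeloid cells, fell by 3.04 (SE 0.60), and this rested on splenic B, where it was 4.87 TPM: without that library the change was -1.56 and not called. Splenic B also held 226 TPM of microglia and macrophage markers and 114 TPM of neutrophil and monocyte markers, against at most 2.78 and 54.1 TPM in the activated B cultures. The part of those cells in the Hk3 difference was not tested.

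The response of Slc2a3 differed between the lineages in a test of the difference, a call that few alternatives with other libraries or terms kept. It was 41.3 TPM in splenic B and 13.15 to 34.5 in activated B cells, and 26.5, 21.3 and 202 TPM in CD4+, CD4+ MUT and ConA CD4+. The interaction was -4.15 ± 0.69 on the log2 scale, B minus T (adjusted p = 0.0411, edgeR), and 0.719% of 14324 genes passed that test. The T cell side holds 1 activated library (ConA CD4+) and the B side 1 unstimulated library (splenic B), and without either the test cannot be made. Of 8 fits that left out 1 other library 7 lost the call, all but the fit without LPS+IL4 B, with values from -4.43 to -4.05. Both single libraries carry the other transcript length model, and with the length model as a term the value was -2.02 and not called. These alternatives were added after seeing the data.

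Of the 12 proliferation genes 11 rose with activation, Cdk1 by 4.04 ± 0.68. Of 16 citrate cycle genes 5 rose, Sdhd by 1.25 ± 0.30 and Fh1 by 1.21 ± 0.26, and of 14 regulators 12 were tested and 1 fell, Txnip by 2.17 (SE 0.61). Bsg, the chaperone of the lactate carriers, rose by 1.65 ± 0.43, and Bhlhe40, 1 of 15 hypoxia-responsive genes, by 3.04 ± 0.7. Leaving out CD4+, ConA CD4+ or CD4+ MUT brought the members called from 10 to 1, 1 and 2, and leaving out splenic B to 2. The fold changes moved less than the calls: over the 10 fits that left out 1 library, they ran from 2.61 to 2.83 on the log2 scale for Pgam1, from 2.3 to 2.68 for Gapdh, from 2.45 to 2.94 for Slc16a1 and from -1.44 to -1.31 for Pfkfb2, and more widely for Hk2 (3.16 to 4.62) and Hk3 (-4.04 to -1.56). Without ConA CD4+ the activation term rested on B cells alone, and without splenic B on CD4 T cells alone. With the length model as a term 17 members were called, 15 of them higher.

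Within the activated B cells, the LPS+IL4 culture stood apart. Summed over 9 trunk genes (Gpi1, Aldoa, Tpi1, Gapdh, Pgk1, Pgam1, Eno1, Pkm and Ldha) it held 18264 TPM, against 5667 with LPS alone, 4753 with LPS and IL21, 8258 with LPS and a-d-dextran, 6086 with aBCD180 and 3341 with aCD40 and IL4. ConA CD4+ had 13511 TPM, and splenic B and CD4+ had 2026 and 2643. The sum includes Eno1, whose reads divide differently in LPS+IL4 B, ConA CD4+ and splenic B. Compared with LPS alone, 15 of the 28 members at 1 TPM or more were at least 2-fold higher in LPS+IL4 on the log2(TPM + 1) scale, where 9.7% of genes were. In ConA CD4+ against CD4+ 18 of 28 were, where 14.3% of genes were. The other IL4 culture did not share this: 20 of 28 members were at least 2-fold lower in aCD40+IL4 than in LPS+IL4, as were 11.6% of genes.

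The widest gaps were at the exporter and the minor isoforms. Slc16a3 was 128 TPM in LPS+IL4 B and 117 in ConA CD4+, against 0.76 to 1.37 TPM in the other 5 activated B cultures. Aldoc was 161 and 84.7 TPM against 3.49 to 13.8, and Eno2 was 24.95 and 144 TPM against 0.75 to 1.99. Pdk1 was 90.5 TPM in LPS+IL4 B against 5.40 to 10.5 in the other activated B cultures, and in ConA CD4+, at 66.8 TPM, it lay below the CD4+ pair. The 15 hypoxia-responsive genes outside glycolysis summed to 1657 TPM in LPS+IL4 B against 258 to 415 in the other B libraries, and to 1300 TPM in ConA CD4+ against 574 to 829 in the other CD4 T libraries. As examples chosen after their values were seen, Bnip3 was 257 TPM in LPS+IL4 B and 109 in ConA CD4+ against 9.18 to 13.5 in the other activated B cultures, and Vegfa was 46.3 and 41.9 TPM against 0.82 to 3.89.

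Several measures moved with these libraries. Both carry the other transcript length model, and their red cell transcripts were 3.45 and 0.38 TPM summed, against 939.9 to 10327 TPM in the other activated B cultures and 3.67 to 26.0 TPM in the other CD4 T libraries. They were also deep, at 88.2 M and 147.9 M counts. Splenic B, with the same length model and 105.5 M counts, had the lowest trunk sum of the series at 2026 TPM. The trunk sum was 2643 TPM in CD4+ (84.3 M), 3202 in non-Tfh MUT (87.6 M) and 6395.5 in CH12, which also carries that length model. The part of length model, red cell RNA or depth in the difference was not tested. An alternative added after seeing the data left out LPS+IL4 B and ConA CD4+. The CD4 T side then holds no activated library, and the activation term sets the other activated B cultures against splenic B alone. Hk2, Tpi1, Pgk1, Pkm, Ldha, Slc16a1 and Pfkfb2 no longer passed. Their log2 fold changes in B cells were then 3.02 for Hk2, 2.23 for Tpi1, 2.2 for Pgk1, 2.01 for Pkm, 2.47 for Ldha, 3.03 for Slc16a1 and -1.42 for Pfkfb2. Those of Ldha, Slc16a1 and Pfkfb2 were no smaller than in the main fit, which holds both lineages.

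**Figure D4:**
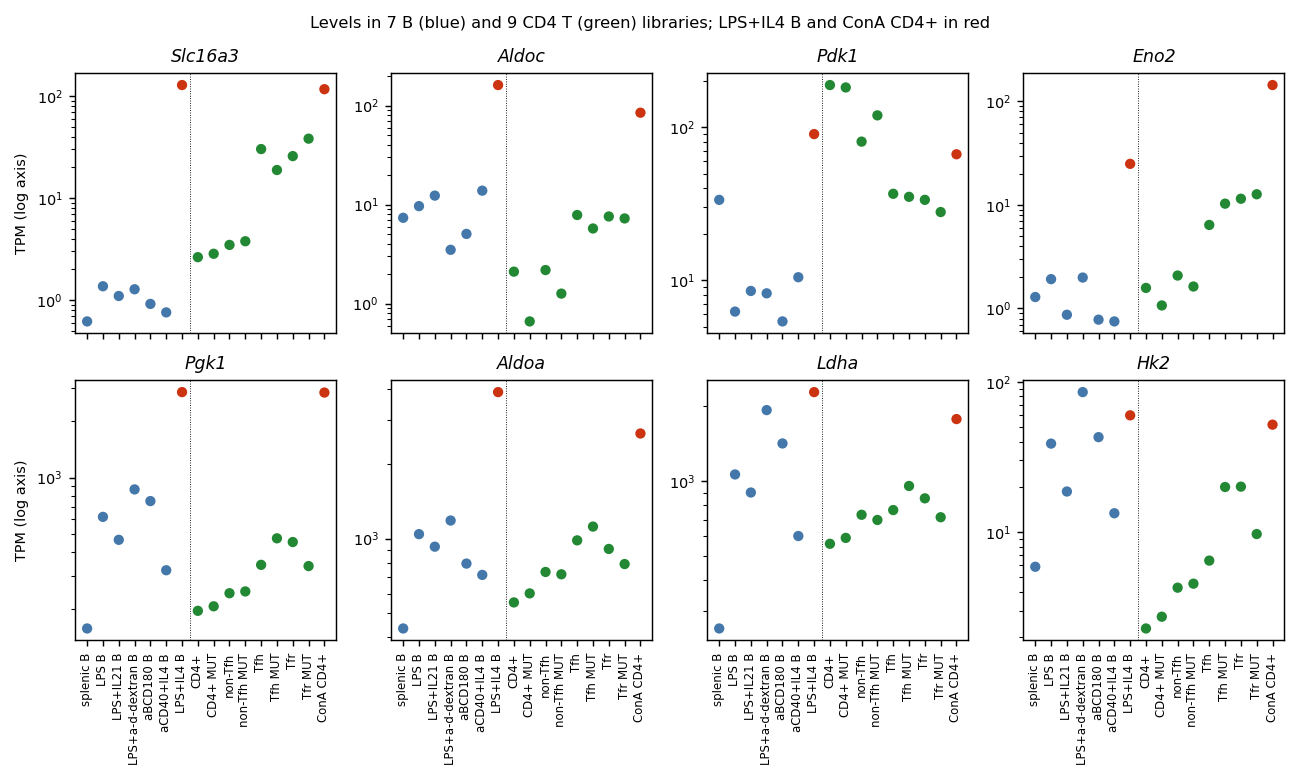
TPM (log axis) of 8 genes in the 7 B libraries and the 9 CD4 T libraries (horizontal axis), with LPS+IL4 B and ConA CD4+ in red. The red points are the highest for Slc16a3, Aldoc, Eno2, Pgk1, Aldoa and Ldha within their lineage, and not for Pdk1 among T cells or Hk2 among B cells.

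Because hypoxia-responsive genes were high beside members in those libraries, the members' promoters were searched for ACGTG. It is a form of the core letters that hypoxia-inducible factors bind, and it also lies inside CACGTG, the sequence bound by Myc and Max. GCGTG, another form of that core, was not part of the search. RefSeq windows of 250 bases before a start site (GRCm38.p6) were matched for 29 of the 31 genes, in 48 windows. ACGTG on either strand stood in 17 of the 48 (35.4%), and in 16.6% of all 32851 windows of that length. Windows of a gene can overlap, and the Aldoa match is counted in overlapping windows. The background was not matched for expression or base content. By gene it was in 13 of 29 (44.8%) against 18.5% of 27025 genes, where members had more windows per gene (48 for 29, against 32851 for 27025), and 4 genes had at least 2 separate matches in a window (13.8% against 2.28%). CACGTG, whose matches are also ACGTG matches on both strands and were counted once there, was in 5 windows (10.4% against 6.02%). The 4 windows with at least 2 matches are printed 5′ to 3′ on the gene's strand, with matches in either orientation in capitals: Hk2 at chr6:82774455-82774704 (minus strand), Ldha at chr7:46845554-46845803, Slc16a3 at chr11:120948817-120949066 and Pgk1 at chrX:106186850-106187099 (plus strand).
Hk2: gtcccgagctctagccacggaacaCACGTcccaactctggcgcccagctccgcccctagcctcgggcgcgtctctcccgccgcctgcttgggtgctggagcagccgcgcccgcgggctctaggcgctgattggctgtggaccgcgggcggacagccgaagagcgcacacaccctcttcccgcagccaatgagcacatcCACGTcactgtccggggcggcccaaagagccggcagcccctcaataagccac
Ldha: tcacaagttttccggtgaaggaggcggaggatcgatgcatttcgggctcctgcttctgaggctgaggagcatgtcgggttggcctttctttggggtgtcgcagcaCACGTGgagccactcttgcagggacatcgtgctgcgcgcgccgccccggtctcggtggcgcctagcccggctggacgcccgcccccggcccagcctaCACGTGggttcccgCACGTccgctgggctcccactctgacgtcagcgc
Slc16a3: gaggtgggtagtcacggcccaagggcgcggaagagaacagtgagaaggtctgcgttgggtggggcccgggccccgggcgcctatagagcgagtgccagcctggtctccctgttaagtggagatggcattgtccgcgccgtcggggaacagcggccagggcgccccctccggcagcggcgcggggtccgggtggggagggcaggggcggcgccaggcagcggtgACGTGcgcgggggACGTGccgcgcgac
Pgk1: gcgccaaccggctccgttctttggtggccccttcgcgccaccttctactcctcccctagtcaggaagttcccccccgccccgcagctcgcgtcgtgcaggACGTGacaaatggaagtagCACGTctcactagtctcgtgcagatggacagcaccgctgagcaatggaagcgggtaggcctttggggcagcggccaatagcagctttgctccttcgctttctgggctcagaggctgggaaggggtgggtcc

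The matches began 226 and 52 bases before the start in Hk2, 145, 48 and 34 in Ldha, 27 and 14 in Slc16a3, and 150 and 131 in Pgk1. Ldha, the only gene here with CACGTG in a window more than once, was 1065 TPM in LPS B and 2283 in LPS+IL4 B, and Slc16a3 was 1.37 and 128 TPM. The windows of Aldoc, Pdk1 and Ldhb hold no ACGTG, though a window of each holds GCGTG. A gene without ACGTG can thus still hold a form of the core. Aldoc (9.64 and 161 TPM) and Pdk1 (6.26 and 90.5 TPM) were higher in LPS+IL4 B than in LPS B. Of the 13 genes with ACGTG 7 were at least 2-fold higher in LPS+IL4 B on the log2(TPM + 1) scale, and of the 16 without it 8 were. Hk2, with 2 matches, differed by 0.61. For 38 of the 48 windows, the Ldha window printed here not among them, the bases after the start also lie near the start of a GENCODE transcript of the gene. A second Ldha window, at chr7:46846832-46847081, is among the 38 and holds no ACGTG. The letters mark matches only, and binding was not measured here.

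Enolase 1 needs a separate reading. Eno1 and Eno1b, a near-identical copy, share reads, and the tables divide them unequally. In the 4 libraries with the other length model Eno1 was 1327 (LPS+IL4 B), 240.2 (splenic B), 990.5 (ConA CD4+) and 906 TPM (CH12). In the remaining 18 it ran from 25.9 TPM in back skin to 177 in putamen, while Eno1b ran from 216 in back skin to 1678 in LPS+a-d-dextran B. Summed, Eno1 and Eno1b were 242 TPM in back skin, 417 in splenic B, 2118 in CH12 and 2763 in LPS+IL4 B. Read alone, Eno1 cannot be compared between the 4 libraries and the rest, and other members with near-identical copies in the genome, such as Gapdh, are uncertain in the same way to an extent not measured here.

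**Figure D5:**
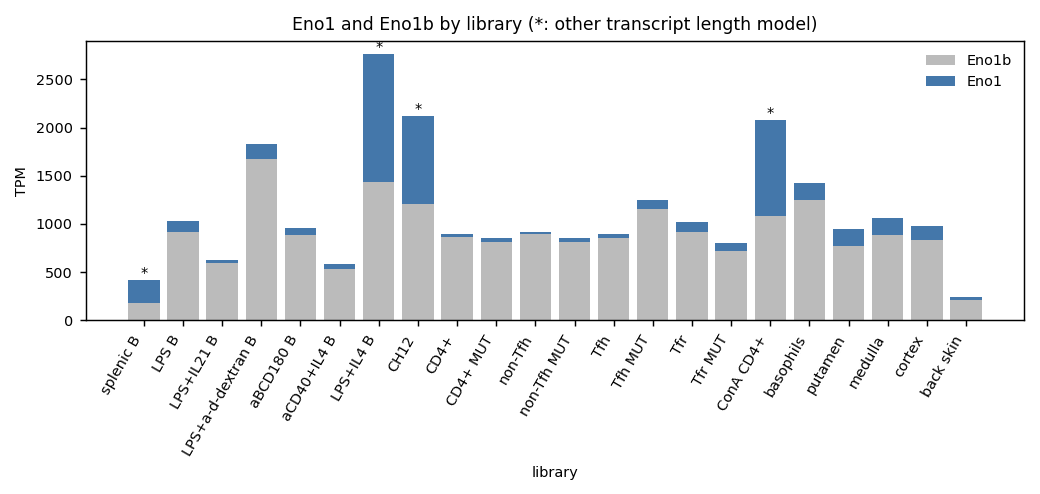
TPM (vertical axis) of Eno1 stacked on Eno1b in the 22 libraries, with a star over the 4 libraries of the other length model. The blue Eno1 part is large in the starred columns and small elsewhere, while the summed height is highest in LPS+IL4 B.

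Muscle enolase showed its own pattern in B cells. Eno3 was 236 TPM in aBCD180 B, against 10.9 to 29.54 TPM in the other activated B cultures, 38.8 in splenic B and 275 in back skin. The 8 skeletal muscle markers summed to 12.9 TPM in aBCD180 B and 7113 TPM in back skin. Among T cells Eno3 was highest in ConA CD4+ at 96.6 TPM and Tfr MUT at 69.0.

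Basophils had the most hexokinase RNA. With 1 library there is no test, and a gene was counted when its log2(TPM + 1) lay at least 2 above or below all 16 lymphocyte libraries with at least 10 TPM on the higher side. By that rule Hk3 was the only member higher (1.92% of 20163 genes were higher and 0.327% lower, and 0 members were lower). Hk3 was 48.2 TPM against 0.10 to 4.87 in lymphocytes, and Hk2 was 206 TPM against 2.28 to 85.3. Slc2a3, at 258 TPM, was also above all 16 lymphocyte libraries, the highest of which was ConA CD4+ at 202. Slc16a3 was 127 TPM, Pkm 2064 TPM and Pdk1 1.90 TPM, the lowest Pdk1 of the series. Neutrophil and monocyte markers summed to 5680 TPM in this library, with all 7 at 1 TPM or more, beside 36254 TPM for the basophil markers, and their part in the Hk3 level was not tested.

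Back skin held muscle isoforms at several steps. Pgam2, the muscle mutase, was 185 TPM against 1.54 to 23.0 in the other 21 libraries, the only member higher by the rule of size (3.62% of genes were higher). Slc2a3 was 1.69 TPM against 13.15 to 258 and was the only member lower (0.114% of genes were lower). Slc2a4, the transporter of muscle and fat, was 15.0 TPM against at most 3.29 and met the rule with a pseudocount of 0.1. Pgam2 made 55.0% of the mutases, Eno3 90.5% of Eno1, Eno2 and Eno3 (52.9% with Eno1b), Slc2a4 51.3% of the transporters and Pfkm 51.8% of the phosphofructokinases. Aldoa was high at 2321 TPM, while Gpi1, at 104 TPM, was the lowest of the series. The muscle and adipocyte markers given above were present beside these levels.

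CH12 lymphoma cells had 0 members past the rule of size against the 6 activated B cultures (1.24% of genes were higher and 0.417% lower). Without the LPS+IL4 culture 2 members were past it. Slc2a3 was 53.1 TPM against 13.15 to 34.5, Pfkm 28.6 against 4.03 to 26.2, and Aldoc 0.33 against 3.49 to 161. Slc16a1 was 82.4 TPM, inside the range of 16.2 to 94.1, and Ldhb was 0.03 TPM from 1 estimated read.

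Across the 22 libraries each trunk gene was set against the mean standardized level of the 9 trunk genes. The Pearson correlation was 0.97 for Gapdh and Pgk1, 0.92 for Pgam1 and Pkm and 0.91 for Tpi1. It was 0.83 for Gpi1, 0.78 for Aldoa, 0.77 for Eno1 and 0.52 for Ldha. Each gene is part of that mean, which raises its value, and the mean holds Eno1, whose reads divide differently in 4 libraries. Outside the trunk the correlation was 0.86 for Pfkp and 0.76 for Pfkl, 0.01 for Ldhb, -0.43 for Pfkfb2 and -0.24 for Pdk1. Among the 16 lymphocyte libraries Gpi1 and Aldoa correlated at 0.98 and Eno2 and Slc16a3 at 0.93. The correlation was computed for all 9936 genes with a mean of at least 10 TPM. Outside the members and the lists, the most like the trunk were Sod1 and Hmgb3 (0.85), Cit and Psat1 (0.84), Mydgf and Ufsp2 (0.83), Cox17, Cmc2 and Acat2 (0.82) and Hint1 (0.81). These values describe 22 libraries that share lineages and processing, and LPS+IL4 B and ConA CD4+ had the highest trunk means.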

How the data were processed

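Poly(A) RNA was extracted from 0.5 M cells for the cultured samples and sequenced for 50 cycles, per the labels' protocols. CASAVA 1.8.2, STAR, RSEM and bedtools and the mm10 build appear in the submitters' processing notes, without settings. Per the file headers the authors deposited, for each gene, an expected count (estimated reads, not normalized), TPM and FPKM (FPKM not used here). Of the expected counts above 0, 86.1% were whole within 1e-09, and all were rounded for count models. The members, lists and tests were chosen with earlier results of these data known. The named genes are all 31 members, at most 2 genes per list and comparison (largest change among those called), and the 10 most like the trunk.

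Genes across libraries were tested with the quasi-likelihood model of edgeR 4.0.16 under R 4.3.3. Low genes were removed by filterByExpr, libraries were scaled by TMM, and p-values were adjusted by Benjamini-Hochberg over every gene tested, with calls at 0.05. The sorted T fits had population and MUT label as terms, activation had lineage, and brain was set against the mean of B and CD4 T. Isoform shares used exact permutation tests, and groups with 1 library the rule of size on log2(TPM + 1). As alternatives, RLE scaling and an unfiltered table were tried, then DESeq2 1.42.0 and limma 3.58.1, other library sets and terms, and each library left out. Scripts were tested on simulated data. Promoters came from RefSeq tables of GRCm38.p6, and no promoter of Slc2a3 or Slc2a4 was used. No library pair was identical (0 pairs).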

Additional observations from a re-analysis of the deposited data

Results flagged for a closer look

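Within the 6 activated B cultures and the 9 CD4 T libraries, 55 groups of values were examined and 19 held a library far from the rest. The cutoff would flag about 1 in 20 groups of like replicates. These libraries differ in treatment or population and the genes vary together, so the 19 cannot be set against that rate. All but 1 of the 19 fell to a pair of libraries. LPS+IL4 B was the highest for 8 genes: Slc2a1 (83.2 TPM, next 46.8), Gpi1 (993, next 424), Pfkm (26.2, next 6.83), Aldoa (3892, next 1182), Aldoc (161, next 13.8), Eno2 (24.95, next 1.99), Slc16a3 (128, next 1.37) and Pdk1 (90.5, next 10.5). ConA CD4+ was the highest for 10 genes: Slc2a1 (115 TPM, next 44.1), Slc2a3 (202, next 66.1), Gpi1 (721, next 407), Pfkm (33.0, next 23.2), Aldoa (2651, next 1118), Aldoc (84.7, next 7.84), Pgk1 (2835, next 475), Eno1 (990.5, next 103), Eno2 (144, next 12.7) and Ldha (1778, next 957). The other 1 was Eno3 in aBCD180 B (236 TPM, next 29.54). Eno1 reads are divided differently in ConA CD4+ than in the other CD4 T libraries. Eno1 and Eno1b summed were 2078 TPM in ConA CD4+, next 1253 in Tfh MUT. The response of Slc2a3 to activation differed between B and CD4 T cells by -4.15 on the log2 scale in an interaction test (adjusted p = 0.0411, edgeR). ConA CD4+ is the only activated T library and splenic B the only unstimulated B library in it, 7 of 8 fits without 1 other library lost the call, and with a length model term the value was -2.02 and not called.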

How the results depend on the processing

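The labels give no replicate numbers to use as a block. The fits of the sorted CD4 T libraries already hold population and MUT label as terms, so the MUT comparison is made over 4 pairs. With 1 library per group every p-value measures the spread between related libraries. Depth limits the lowest members, such as Ldhb in CH12 (1 estimated read). RLE scaling and an unfiltered table left every count within 1.5 times its main value. DESeq2 called 15 members for follicular against non-Tfh (3599 genes in all), 11 for B against CD4 T, 3749 genes for activation and 2 for the MUT label. With limma, 19 members were called for sorted against CD4+ and 15 for follicular. Its split of all genes also differed: 2762 higher and 698 lower for sorted (main 1748 and 1494), 1580 and 633 for follicular (main 1079 and 995), and 806 and 1765 for activation (main 1087 and 804). A length model term gave 17 members and 3239 genes for activation and 9 members for B against CD4 T, and an activation term gave 3 there. Unstimulated lymphocytes alone gave 25 members in brain, 18 higher and 7 lower (main 8 and 4). All genes called numbered 12117 there, against 11848 in the main fit. B cells have 1 library in that fit.

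Of the alternatives added after seeing the data, leaving out Tfh MUT and Tfr gave 22 members and 6633 genes for sorted, 18 and 5377 for follicular, and 1 and 478 for the MUT label, and leaving out LPS+IL4 and ConA gave 5 members for activation. In that last fit the activation term rested on B cells alone, set against splenic B. Summing Eno1 and Eno1b reversed Eno1 in follicular cells to -0.01. A size difference of 1 gave 2 members and 974 genes in basophils, 6 and 1148 in skin and 770 genes in CH12, where a TPM minimum of 1 gave 564. For the interaction of activation with lineage (1 member, 103 genes), all of whose alternatives were added, DESeq2 called 721 genes, limma 179, and a length model term 54 genes with 2 members. The cause of these shifts was not tested.

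Leaving out each library in turn gave, in members and in all genes, 1 to 19 and 557 to 5325 for sorted, 0 to 15 and 0 to 4942 for follicular, 0 to 0 and 0 to 29 for the MUT label, 1 to 15 and 274 to 2487 for activation, 0 to 6 and 0 to 539 for its interaction with lineage (not estimable without ConA CD4+ or splenic B), 3 to 17 and 5038 to 6648 for B against CD4 T, 10 to 16 and 11051 to 12070 for brain, 1 to 1 and 453 to 494 for basophils, 2 to 3 and 752 to 815 for skin, and 0 to 2 and 337 to 464 for CH12. Called shares numbered 6 for brain each time and 4 to 5 for B against CD4 T.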
